A study of Danio rerio with 4 samples.

Results

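Connexin genes encode the subunits of gap junctions, and 32 of the 25432 genes in the zebrafish trunk count tables carry a connexin symbol, that is, a name that begins with cx or with gja to gje and continues with a digit. The members were chosen by symbol alone, though with earlier results of these data known. RefSeq's annotation of assembly GRCz12tu names 30 of them within the gap junction protein families, with 15 alpha (gja), 8 beta (gjb), 3 gamma (gjc), 3 delta (gjd) and 1 epsilon (gje) gene. cx28.1 and cx40.8 had no match there.

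Single-cell RNA was sequenced from dissected trunks of zebrafish at 3 days post-fertilisation (dpf), in 2 libraries of flt1 mutant (genotype flt1ka604) and 2 of WT. Flt1 is a Vegf receptor that binds Vegfa and limits how much of it reaches Kdrl, and per the study's methods the mutant allele is a small deletion in an early exon with a premature stop codon, so that neither the soluble nor the membrane-bound form binds Vegf. How many embryos went into a library, and whether libraries of the same number share a day or clutch, is not given in the sources used here, so p-values measure the spread between these libraries, which may be technical. Transcripts were counted near their 3′ ends, which does not check such a deletion. In endothelial-like cells flt1 itself was at 241 and 168 CPM (UMIs scaled to a common total) in the flt1 mutant libraries, against 213 and 213 CPM in the WT libraries.

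Connexins assemble into hemichannels in the plasma membrane, and hemichannels of neighbouring cells dock to let ions and small metabolites pass directly between the cells. Gap junctions keep neurons, muscle and heart in electrical step, coordinate pigment cells during stripe formation, and link endothelial cells along vessels. Zebrafish carry more connexin genes than mammals, in part through duplication of the genome in the ancestors of teleosts, and several are known from mutants: cx43 from short fin, gja5b from leopard and cx39.4 from luchs, the stripes of the last pair being altered.

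After filtering, 4312 and 5569 flt1 mutant cells and 3042 and 6688 WT cells were retained, with 35781471 to 61822943 unique molecular identifiers (UMIs, 1 per captured transcript) in a library. They fell into 28 clusters, of which 24 were named from marker genes as 24 classes with 12707 cells. The other 4 clusters, of 6904 cells, stayed unnamed and held 381 connexin UMIs. Of these, 3 were shallow, with medians of 585 to 803 UMIs, and 1 of 102 cells, led by myb, coro1a and lcp1 among others, had a median of 21876.5 UMIs but too few markers of any class. Retained cells of flt1 mutant replicate 2 had a median of 779 UMIs, against 3760 to 8033 in the other libraries, but over cells of named classes the median lay between 8483 and 9473 in all 4. In all, 101 barcodes occurred in more than 1 library, and 2 to 10 of them were retained in both libraries of a pair. Photoreceptor-like cells, 1 and 10 in the flt1 mutant libraries against 47 and 44 in the WT libraries, and retinal bipolar-like cells, 0 and 15 against 44 and 44, carried markers of the eye or the pineal organ and came mainly from WT. Of the classes, 18 had at least 20 cells in each library and were tested. A further 4 with at least 10 cells (endothelial-like, iridophore-like, myelinating glia-like and neutrophil-like) were added after their cell numbers had been seen.

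A handful of connexins made up most of the connexin transcripts. Retained cells held 33015 connexin UMIs, and cx30.3 (41.7%), cx43.4 (30.8%) and cx43 (14.7%) together gave 87.2% of them. A total of 13 members had at least 100 UMIs, 12 had fewer than 20, and 31 had at least 1. cx52.7 had a UMI in 0 of 19611 cells, which allows a share of up to 0.0153%. Connexin transcripts took 174 and 181 CPM of the flt1 mutant libraries, against 208 and 170 CPM of the WT libraries. Because 3′ counting gives about 1 tag a transcript, these levels do not scale with gene length, but capture may still differ between genes, and intervals and limits here cover counting error only.

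Of the 32 members, 18 were called higher in at least 1 class. The share of all genes so called was not counted, so this number says nothing particular about connexins. Against all other named cells, 25 of 237 pairs of a member and 1 of the 18 classes (10.5%) were called higher in the class, at an adjusted p under 0.05 and a log2 fold above 1 in edgeR's quasi-likelihood test. Over all genes 11.8% of such pairs were called, so the share is near the background. In the 4 smaller classes 6 of 51 pairs (11.8%) were called, against 7.15% over all genes. The calls lay in 17 of the 22 classes. A gene entered a fit only where it passed a filter on low counts that uses the sums of the class. cx47.1, cx39.4 and cx28.8 passed it only in the class where they were called, and cx40.8 only in the classes where it was called. gjd2b passed it in neuron-like cells, where it was called, and otherwise only in fast muscle-like cells. Those calls carry no weight beyond their counts. The fold changes below are log2 values of the class over the other named cells on the scale of the trimmed mean of M-values (TMM), and CPM are UMIs scaled to a class's own total in a library. The other named cells enter as 1 sum of UMIs per library, so large or deep classes weigh most in it. Periderm-like, erythroid-like and fast muscle-like cells, with medians of 21174, 16819.5 and 91823.5 UMIs per cell, are such classes. Scaling by library totals instead moves the median log2 fold of all genes by −2.69 to 1.06 between classes.

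**Figure D1:**
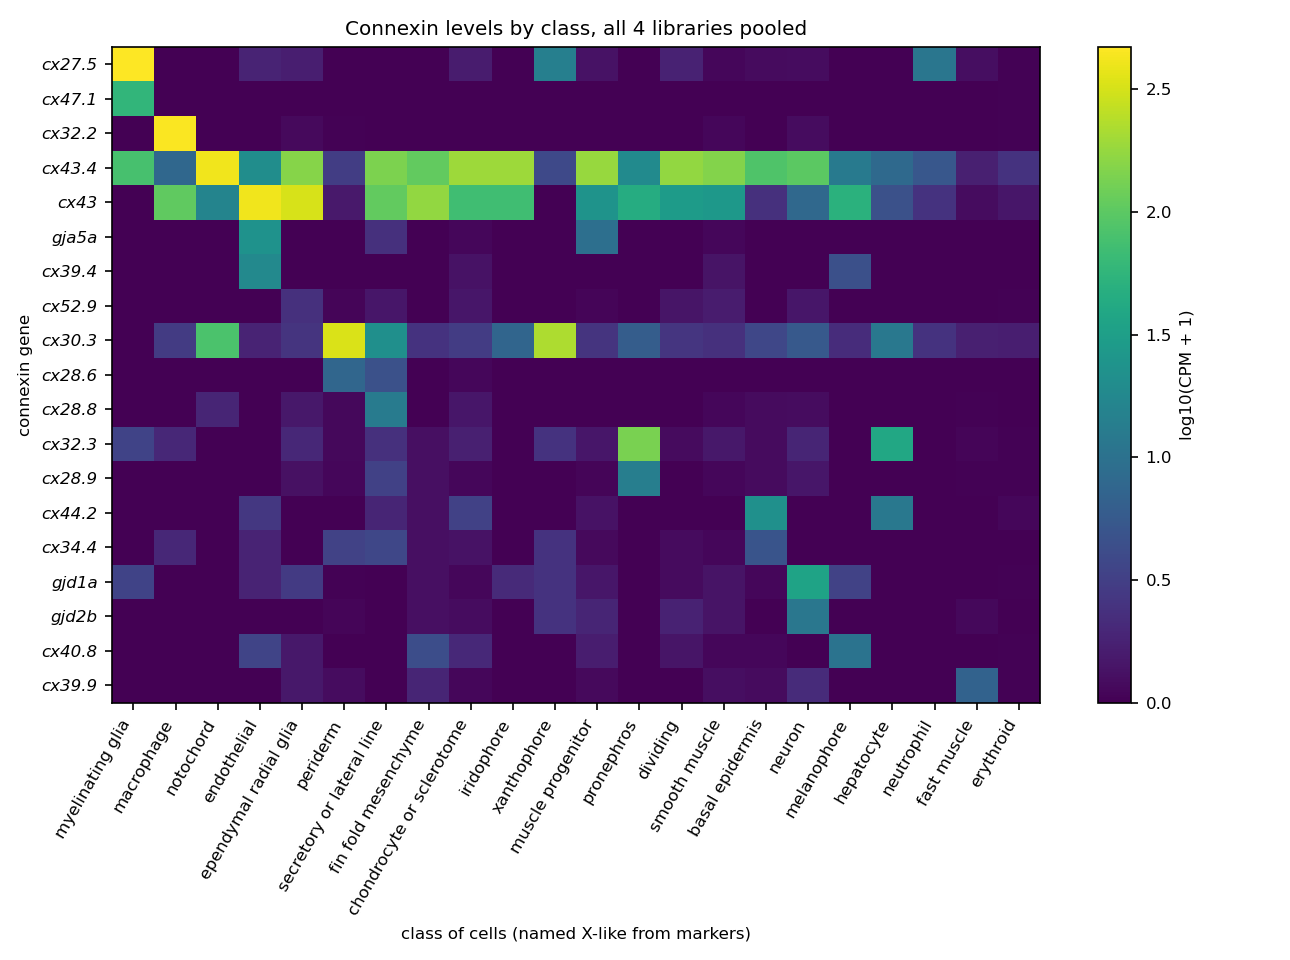
Level of 19 connexins with at least 20 UMIs (rows) in 22 trunk cell classes (columns), over all 4 libraries, as log10(CPM + 1) on the colour scale. cx30.3 stands out in periderm-like, cx32.2 in macrophage-like and cx27.5 in myelinating glia-like cells, while cx43.4 is spread over mesenchymal, neural and notochord classes.

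The outermost skin layer held the most abundant connexin. cx30.3, a beta connexin, had 13768 UMIs, and 95.4% of them (13138) lay in periderm-like cells, the flat surface cells of the larval skin. It was at 283 and 299 CPM in the flt1 mutant libraries and 402 and 365 CPM in the WT libraries, 337 ± 56.2 CPM over all (SD, n = 4). At least 1 UMI was found in 1697 of 1815 cells (93.5%, exact 95% interval 92.3 to 94.6%). When the 1814 cells with at least 1000 UMIs were thinned to that number, the expected share was 27.1%. In erythroid-like cells, which should lack it and serve as the background, the shares were 1.102% and 0.0732%. The log2 fold of cx30.3 in periderm was 6.94 (SE 0.165, adjusted p = 3.36e-08).

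Other beta connexins marked the epidermis at far lower levels. cx28.6 had 265 of 276 UMIs in periderm-like cells, at 6.03 and 5.57 CPM in the flt1 mutant and 8.35 and 7.28 CPM in the WT libraries (log2 fold 7.12, SE 0.361, adjusted p = 6.26e-07). Its level in secretory or lateral line-like cells, 4.78 and 7.72 CPM in the flt1 mutant and 2.68 and 0 CPM in the WT libraries, overlapped with periderm. cx34.4 had 148 UMIs and was called in both skin layers, the periderm and the basal epidermis-like stem cell layer below it, with log2 folds of 2.64 (SE 0.389) in basal epidermis and 3.13 (SE 0.268) in periderm.

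The gamma connexin cx44.2 was called in the basal layer and in no other of the 18 classes. It was at 23.1 and 11.7 CPM in basal epidermis-like cells of the flt1 mutant libraries and 21.9 and 22.6 CPM in those of the WT libraries, which held 203 of its 240 UMIs (log2 fold 6.70, SE 0.267, adjusted p = 1.88e-10). A UMI of cx44.2 was found in 149 of 632 basal epidermis-like cells. cx30.3 and cx28.6 were thus called in the periderm, cx44.2 in the basal layer, and cx34.4 in each.

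cx30.3 was also counted outside the skin. In xanthophore-like cells, the yellow pigment cells, it reached 243 and 165 CPM in the flt1 mutant and 150 and 276 CPM in the WT libraries, below periderm in every library but without an overlap with any lower class. This rests on 149 UMIs in 64 of 346 cells. Its log2 fold of 0.93 stayed below the fold limit, and was 1.43 under library totals. In notochord-like cells it was at 68.4 and 94.98 CPM in the flt1 mutant and 114 and 68.8 CPM in the WT libraries, from 52 of 199 cells, 50 of which also had cx43.4. Of the 199 cells 134 had at least 1000 UMIs, and the part of depth in this overlap was not tested. Per 1000 UMIs of the 12 periderm markers there were 42.0 cx30.3 UMIs in xanthophore-like and 9.28 in notochord-like cells. The ratio was 1.09 in periderm-like, 0.940 in erythroid-like and 0.0400 in basal epidermis-like cells. The last class itself had 62603 to 70162 CPM of these markers. In secretory or lateral line-like cells the ratio was 1.97, and cx30.3 there varied between 2.94 and 41.4 CPM across libraries. The part of stray periderm RNA in these levels was not tested.

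cx43.4 was the member found in most cells (4192). It encodes a gamma connexin known in zebrafish for a role in Kupffer's vesicle and left-right asymmetry. It was highest in notochord-like cells, at 404 and 583 CPM in the flt1 mutant and 425 and 321 CPM in the WT libraries (433 ± 110 CPM, SD, n = 4), and no other class overlapped with that range. The leading genes of this class, col9a1b, matn3a, epyc and col2a1a among them, are shared by notochord sheath and cartilage. The log2 fold was 3.05 (SE 0.162, adjusted p = 3.99e-25), and 123 of 199 notochord-like cells had a UMI.

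Below the notochord the levels of cx43.4 formed a slope without steps. Iridophore-like cells were at 230 and 189 CPM in the flt1 mutant and 183 and 181 CPM in the WT libraries. Chondrocyte or sclerotome-like cells were at 184 and 181 CPM in the flt1 mutant and 193 and 194 CPM in the WT libraries, at a log2 fold of 1.22 (SE 0.0873, adjusted p = 2.74e-07). Muscle progenitor-like cells were at 169 and 195 CPM in the flt1 mutant and 204 and 165 CPM in the WT libraries, at a log2 fold of 1.31 (SE 0.0751, adjusted p = 2.82e-07), and held 1988 of the 10170 UMIs. Dividing, ependymal radial glia-like, smooth muscle-like, secretory, fin fold, neuron-like, basal epidermis-like and myelinating glia-like cells followed, with means over libraries between 171 and 82.6 CPM, and each overlapped with the next. At the low end, cx43.4 was at 1.46 CPM in erythroid-like, 2.05 CPM in periderm-like and 0.73 CPM in fast muscle-like cells. These low classes weigh heavily in the other named cells, so a fold of cx43.4 is in large part a fold over them. Iridophore-like cells, second in level, had a log2 fold of 0.83 and were not called.

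Some of the lower cx43.4 levels came from single libraries. In endothelial-like cells cx43.4 was at 0 and 49.99 CPM in the flt1 mutant and 7.62 and 6.38 CPM in the WT libraries, so that flt1 mutant replicate 2 carried most of it. Photoreceptor-like cells, which were not tested, had 2 and 20 UMIs in the flt1 mutant and 44 and 49 UMIs in the WT libraries, or 148 CPM over all.

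**Figure D2:**
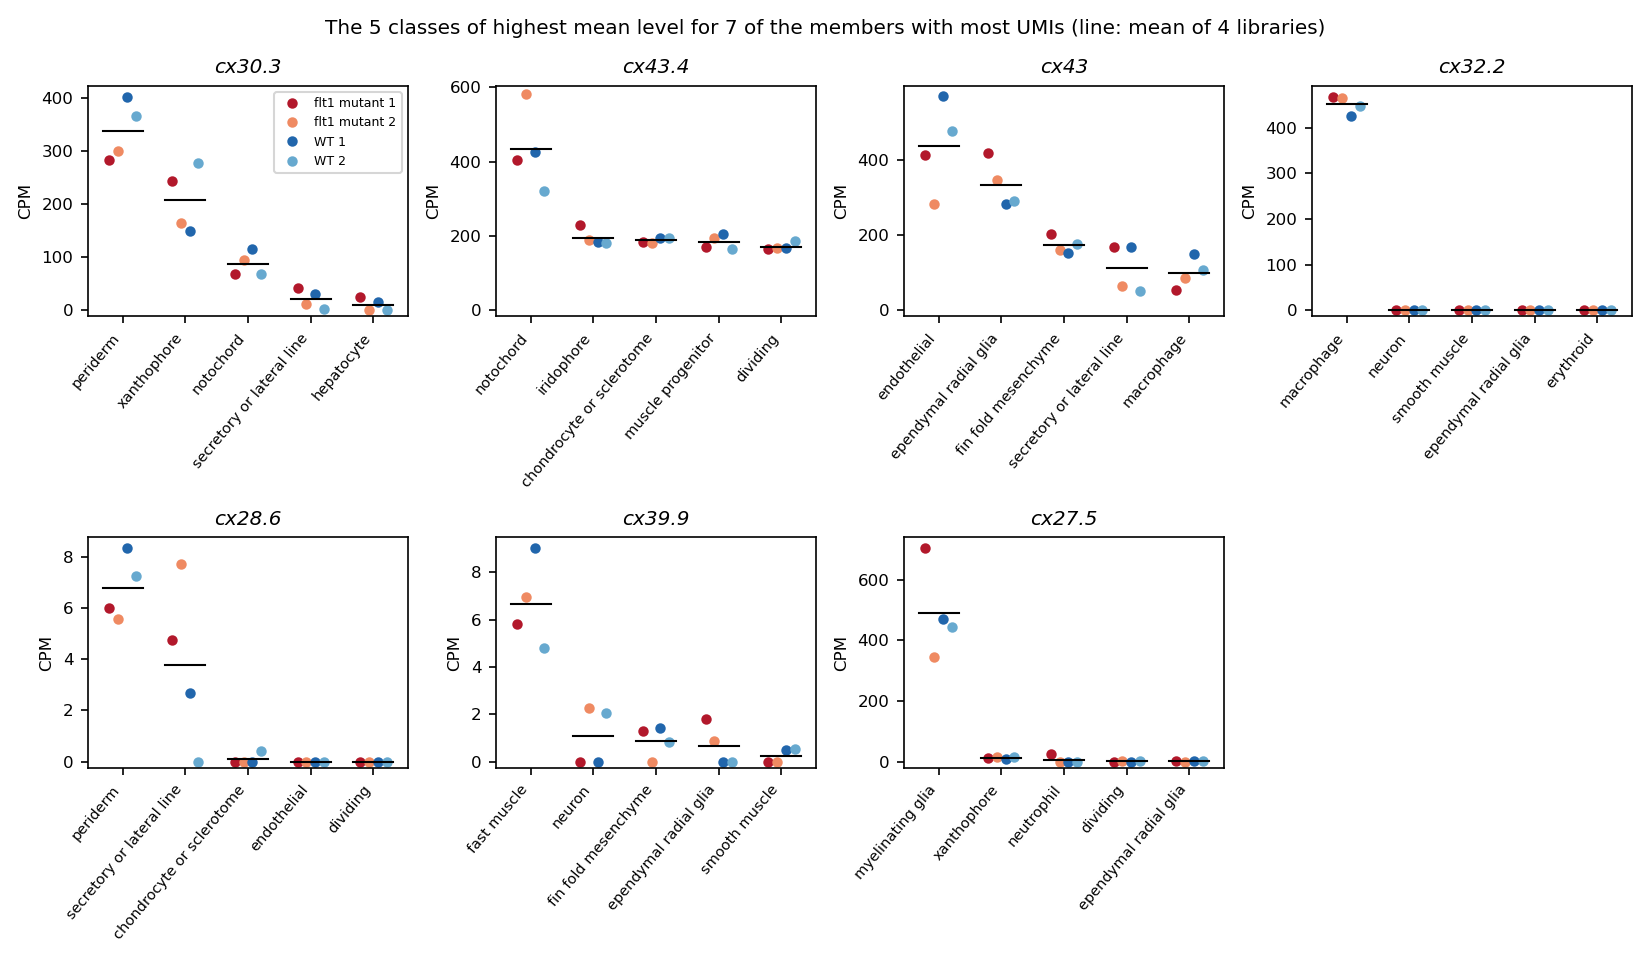
CPM of 7 abundant connexins in the 5 classes of highest mean level, 1 point per library with flt1 mutant left of WT. The leading class of cx30.3, cx43.4, cx32.2, cx39.9 and cx27.5 does not overlap with the next class, whereas those of cx43 and cx28.6 do.

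cx43, the zebrafish counterpart of mammalian GJA1 and the gene of the short fin mutant, had 4854 UMIs and was highest in endothelial-like, radial glia-like and fin fold mesenchyme-like cells. In endothelial-like cells it was at 414 and 284 CPM in the flt1 mutant and 572 and 478 CPM in the WT libraries, at a log2 fold of 3.13 (SE 0.185, adjusted p = 1.91e-62). In ependymal radial glia-like cells, the progenitor and glial cells around the central canal, it was at 418 and 347 CPM in the flt1 mutant and 282 and 292 CPM in the WT libraries, at a log2 fold of 3.24 (SE 0.170, adjusted p = 3.01e-07). The ranges of these classes overlapped. In fin fold mesenchyme-like cells it was at 202 and 160 CPM in the flt1 mutant and 153 and 176 CPM in the WT libraries, clear of radial glia, at a log2 fold of 2.29 (SE 0.130, adjusted p = 6.82e-24).

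Within the radial glia-like class cx43 was uneven. A UMI was found in 202 of 844 cells (23.9%, exact 95% interval 21.1 to 27.0%), with 9.59 UMIs per such cell, and the 84 cells with most cx43 held 77.5% of its 1938 UMIs. In endothelial-like cells the share was 95 of 158 (60.1%, exact 95% interval 52.0 to 67.8%), with 5.13 UMIs per such cell. Depth differed within the endothelial-like class, since cells with cx43 had a median of 8760 UMIs and cells without it 1022. Thinning to 1000 UMIs was applied only to cells with at least that many. The expected share with cx43 was then 14.3% of 804 radial glia-like, 31.2% of 123 endothelial-like and 0.0431% of 1633 erythroid-like cells.

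A finer clustering, at a resolution of 0.6 in place of 0.3, split most of the radial glia-like class between a pair of clusters that differed in cx43. The first part, of 581 cells, had cx43 at 484 CPM and cx43.4 at 118 CPM, and slc4a4a, wnt4b and gfap were among its leading genes. The second part, of 261 cells, had cx43 at 48.2 CPM and cx43.4 at 209 CPM, and pde6gb, rrm2, vsx1 and foxn4 led it. These 261 cells fell into a cluster of 373 cells that also took in the myelinating glia and was named after them. By library, cx43.4 was at 101 and 301 CPM in the second part in the flt1 mutant and 193 CPM in each WT library, against 115 and 144 CPM in the first part in the flt1 mutant and 116 and 105 CPM in WT, so that flt1 mutant replicate 1, with 21 cells in the second part, did not share the difference in cx43.4. pde6gb is known from photoreceptors, and vsx1 and foxn4 from precursors of retinal and of spinal neurons. In the first part cx43 was at 459 and 500 CPM in the flt1 mutant and 477 and 500 CPM in the WT libraries. The second part made up 12.5% and 26.6% of the class in the flt1 mutant libraries, against 34.5% and 40.5% in the WT libraries. In the class as a whole, 139 cells had cx43 only, 342 had cx43.4 only and 63 had both.

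**Figure D3:**
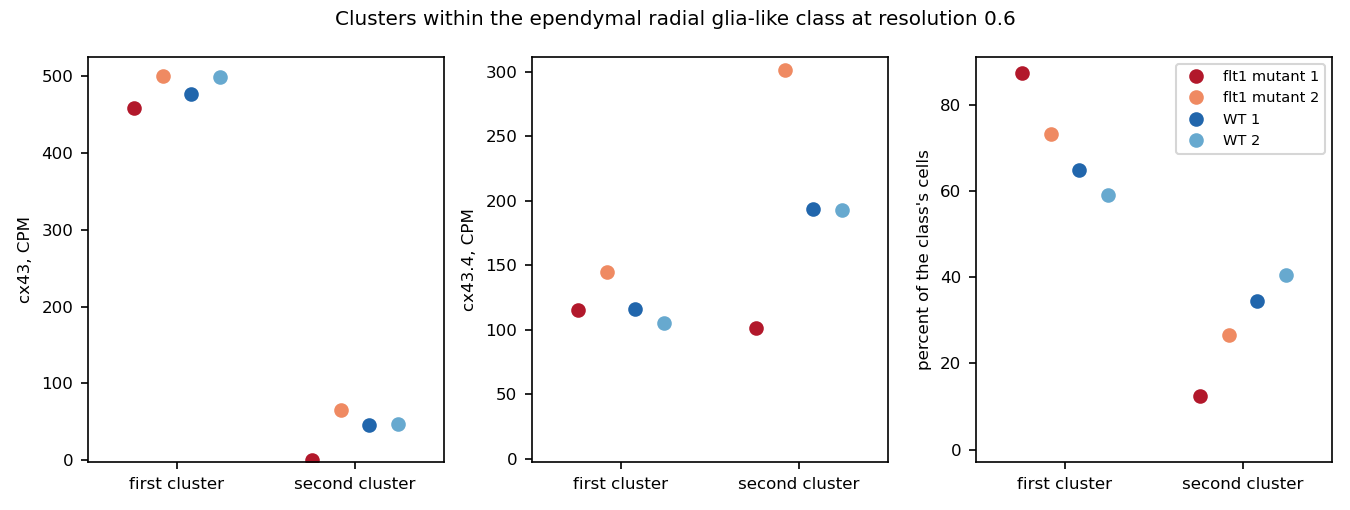
The clusters of finer resolution within ependymal radial glia-like cells, with flt1 mutant left of WT and 1 point per library: CPM of cx43, CPM of cx43.4, and percent of the class in each cluster. The cluster led by gfap and wnt4b carries cx43 at 459 to 500 CPM in all 4 libraries, and the cluster led by pde6gb and vsx1 takes a larger percent of the class in WT.

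cx43 was lower but present in further classes. In macrophage-like cells it was at 53.2 and 85.1 CPM in the flt1 mutant and 149 and 106 CPM in the WT libraries (log2 fold 1.27, SE 0.246, adjusted p = 1.77e-06), from 45 of 102 cells with 108 UMIs. The same cells held 94 UMIs of radial glia markers and 31 of endothelial markers, and their part in this level was not tested. In secretory or lateral line-like cells cx43 varied from 50.01 to 169 CPM across libraries, and its log2 fold of 1.09 (adjusted p = 0.0341) was not called without a count filter, without cells of high doublet score, without flt1 mutant replicate 1 or without WT replicate 1. In melanophore-like cells all but 2 of its 43 UMIs came from WT replicate 2. In myelinating glia-like and xanthophore-like cells cx43 had 0 UMIs in every library.

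Beside cx43, endothelial-like cells carried a pair of connexins that in mammals are known from arterial endothelium. gja5a, a counterpart of mammalian Cx40, was at 31.4 and 42.1 CPM in the flt1 mutant and 0 and 8.50 CPM in the WT libraries, from 6 and 16 against 0 and 4 UMIs, at a log2 fold of 4.38 (SE 0.559, adjusted p = 6.89e-14) over other cells. cx39.4, a counterpart of mammalian Cx37, was at 31.4 and 15.8 CPM in the flt1 mutant and 7.62 and 14.9 CPM in the WT libraries, from 6 and 6 against 1 and 7 UMIs. Its log2 fold was 7.27 (SE 0.733), but it passed the filter on low counts in this class alone, so its call there adds nothing. Neither gja5a nor cx39.4 passed the filter on low counts for a test by genotype, so a difference between the genotypes was not tested. WT replicate 1 held 19 endothelial-like cells, the other libraries 33 to 54.

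Arterial genes were found in nearly all cells with gja5a or cx39.4. All 13 cells with gja5a had dll4 and 12 had efnb2a, both genes of arterial endothelium, against 101 and 83 of 145 endothelial-like cells without gja5a. mrc1a and stab2, genes of venous and lymphatic endothelium, were each found in 1 of the 13 cells, against 40 and 48 of the 145. Of the 14 cells with cx39.4, 13 had dll4, 13 had efnb2a, 4 had mrc1a and 5 had stab2, and 6 also had gja5a. Of the 144 cells without cx39.4, 101 had dll4, 82 had efnb2a, 37 had mrc1a and 44 had stab2. The venous and lymphatic genes were thus not scarcer in cells with cx39.4. Cells with gja5a were deeper, with a median of 13550 UMIs against 6282 in those without. For cx39.4 the medians were 12906 and 6278 UMIs. gja5b, the leopard gene and the paralogue of gja5a, had 10 UMIs in all, 2 of them in endothelial-like cells.

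Macrophage-like cells had a connexin almost to themselves. cx32.2, an alpha connexin, had 462 of 473 UMIs (97.7%) there, at 469 and 466 CPM in the flt1 mutant and 426 and 448 CPM in the WT libraries (452 ± 19.8 CPM, SD, n = 4). Its log2 fold was 12.9 (SE 0.352, adjusted p = 3.14e-285), with 11 UMIs outside the class. Its mean over libraries was at most 0.285 CPM in the other tested classes, and retinal bipolar-like cells, which were not tested, held 1 UMI. A UMI was found in 60 of 102 cells, and each of the 45 cells with cx43 was among them. Of the 102 cells 76 had at least 1000 UMIs, and the part of depth in this overlap was not tested. All 14 UMIs of cx28.1 also came from macrophage-like cells. cx32.2 lies next to cx43 in the RefSeq annotation with no protein-coding gene between them, but cx32.2 had 0 UMIs in endothelial-like and at most 0.434 CPM in radial glia-like cells, where cx43 was highest.

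Pooled over the libraries, myelinating glia-like cells had the highest connexin content of any class, 623 CPM over all members, on 97 cells. By library the total was 893 and 436 CPM in the flt1 mutant and 645 and 618 CPM in WT. In flt1 mutant replicate 2 it lay below notochord-like (739 CPM), macrophage-like (571 CPM) and radial glia-like cells (554 CPM). cx27.5, a counterpart of mammalian Cx32 that is known from Schwann cell myelin, was at 704 and 344 CPM in the flt1 mutant and 469 and 445 CPM in the WT libraries, from 52 and 41 against 59 and 41 UMIs, at a log2 fold of 9.43 (SE 0.298, adjusted p = 4.69e-214). cx47.1, a counterpart of mammalian Cx47 of oligodendrocytes, was at 40.6 and 25.2 CPM in the flt1 mutant and 87.5 and 65.1 CPM in the WT libraries. The class held 23 of its 24 UMIs. cx47.1 passed the filter on low counts in this class alone, so its call there adds nothing to those counts. All 6 UMIs of cx31.7, the paralogue of cx27.5, came from these cells. cx27.5 was also called in xanthophore-like cells, at 11.3 and 15.9 CPM in the flt1 mutant and 9.35 and 14.1 CPM in the WT libraries (log2 fold 2.80, adjusted p = 0.00185). That call was lost without flt1 mutant replicate 2 or without WT replicate 2, with an adjusted p of up to 0.0696. In neutrophil-like cells all 7 of its UMIs came from flt1 mutant replicate 1, and without that library the call was gone.

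Neuron-like cells expressed a pair of delta connexins, members of the family of mammalian Cx36 that builds electrical synapses. gjd1a was at 32.4 and 34.2 CPM in the flt1 mutant and 39.45 and 32.1 CPM in the WT libraries, with 153 of 188 UMIs in neurons and a log2 fold of 6.45 (SE 0.274, adjusted p = 8.69e-09). gjd2b was at 9.45 and 19.4 CPM in the flt1 mutant and 8.35 and 7.51 CPM in the WT libraries, with 46 of its 86 UMIs in neurons. Its log2 fold was 4.44 (SE 0.391). Outside neurons gjd2b passed the filter on low counts only in fast muscle-like cells, so its call adds nothing to these counts. gjd2b was as high in photoreceptor-like cells, which were not tested, at 11.6 CPM over all libraries from 9 UMIs, against 10.5 CPM in neurons. A UMI of gjd1a was found in 130 of 1238 neuron-like cells (10.5%, exact 95% interval 8.85 to 12.3%), and 5 cells had both gjd1a and gjd2b. By UMIs, cx43.4 was nevertheless the leading connexin of neurons, with 436 UMIs and 99.1 CPM.

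As a share of their UMIs, fast muscle-like cells were poor in connexins, unlike muscle progenitor-like and smooth muscle-like cells, which had 218 and 187 CPM of all members together. By number, fast muscle-like cells held 332 connexin UMIs in 402 cells, muscle progenitor-like cells 2392 in 919 and neuron-like cells 708 in 1238. Fast muscle-like cells, the deepest class with a median of 91824 UMIs per cell, had 8.36 CPM. cx39.9, known in zebrafish from the coordinated activity of slow muscle, gave most of it, at 5.80 and 6.98 CPM in the flt1 mutant and 9.03 and 4.81 CPM in the WT libraries. Its log2 fold was 7.56 (SE 0.325, adjusted p = 1.38e-26), or 4.88 under library totals. cx39.9 and cx27.5 are adjacent in the annotation, yet cx27.5 was at most 0.492 CPM in fast muscle-like and cx39.9 at 0 in myelinating glia-like cells.

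Muscle progenitor-like cells held a small set of cells with gja5a. All 92 of its UMIs in that class lay in 33 of 919 cells. The finer clustering put each of those cells into a single cluster, which took 194 cells of the class and 251 cells in all. Its part of the class was led by tnni2b.1, myhb, actc1a and desma, and there gja5a was at 26.0 CPM and cx43 at 1.13 CPM. Another 719 cells of the class lay in a cluster led by col1a1b, fmoda and pdgfrl. They had 0 UMIs of gja5a and cx43 at 33.6 CPM. The 33 cells came from every library, 10 and 2 of flt1 mutant and 7 and 14 of WT. The log2 fold of gja5a in the class was 4.82 (SE 0.627, adjusted p = 9.14e-05). With connexins allowed among the genes that drive the clustering, 29 of the 33 cells moved to the fast muscle-like class and the log2 fold turned to −1.18, so the class of these cells depends on that choice.

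An alpha connexin was called in pronephros-like cells and, on few UMIs, in hepatocyte-like cells. cx32.3 was at 142 and 99.7 CPM in pronephros-like cells of the flt1 mutant libraries and 138 and 154 CPM in those of the WT libraries, from 15 and 9 against 12 and 16 UMIs (log2 fold 7.65, SE 0.526, adjusted p = 8.21e-46). In hepatocyte-like cells it was at 24.5 and 0 CPM in the flt1 mutant and 63.0 and 65.5 CPM in the WT libraries, from 2 and 0 against 4 and 5 UMIs (log2 fold 5.55, SE 0.847, adjusted p = 2.04e-09). These 11 UMIs stood beside 8 UMIs of pronephros markers in the same cells, and their part was not tested. Unnamed cells held another 61 UMIs of cx32.3. cx28.9, which lies next to cx32.3, also led in pronephros-like cells, with 5 of its 40 UMIs there and 14 in unnamed cells.

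Secretory or lateral line-like cells were the class of cx28.8, with 26 of 48 UMIs, at 15.9 and 17.4 CPM in the flt1 mutant and 13.4 and 2.94 CPM in the WT libraries. Its log2 fold was 5.67 (SE 0.560), but it passed the filter on low counts in this class alone, so its call there adds nothing. cx40.8 was thin and scattered, and passed the filter on low counts only in fin fold mesenchyme-like and chondrocyte or sclerotome-like cells. It was called in both, so these calls add nothing to its counts. In fin fold mesenchyme-like cells (log2 fold 3.46, SE 0.75) it was at 5.103 and 1.46 CPM in the flt1 mutant and 1.43 and 4.12 CPM in the WT libraries. In chondrocyte or sclerotome-like cells (log2 fold 1.51) every library left out ended the call. In melanophore-like cells it was at 0 and 26.7 CPM in the flt1 mutant and 0 and 4.40 CPM in the WT libraries.

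The remaining members were at or near the limit of counting. cx52.9 had 30 UMIs over many classes, gja3 14 (9 in periderm-like cells, where its neighbour cx30.3 is abundant), cx23 9, gja8b 5, gja8a 4, cx34.5 4, cx30.9 3, cx52.6 3 and cx36.7 1. gja3, gja8a, gja8b and cx23 are known from the lens, and cx52.6, cx52.7 and cx52.9 belong to the family of retinal horizontal cell connexins. The stripe genes were scarce in pigment cells at this stage. cx39.4 had 3 UMIs in melanophore-like cells and gja5b had 0 in melanophore-like, xanthophore-like and iridophore-like cells.

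**Figure D4:**
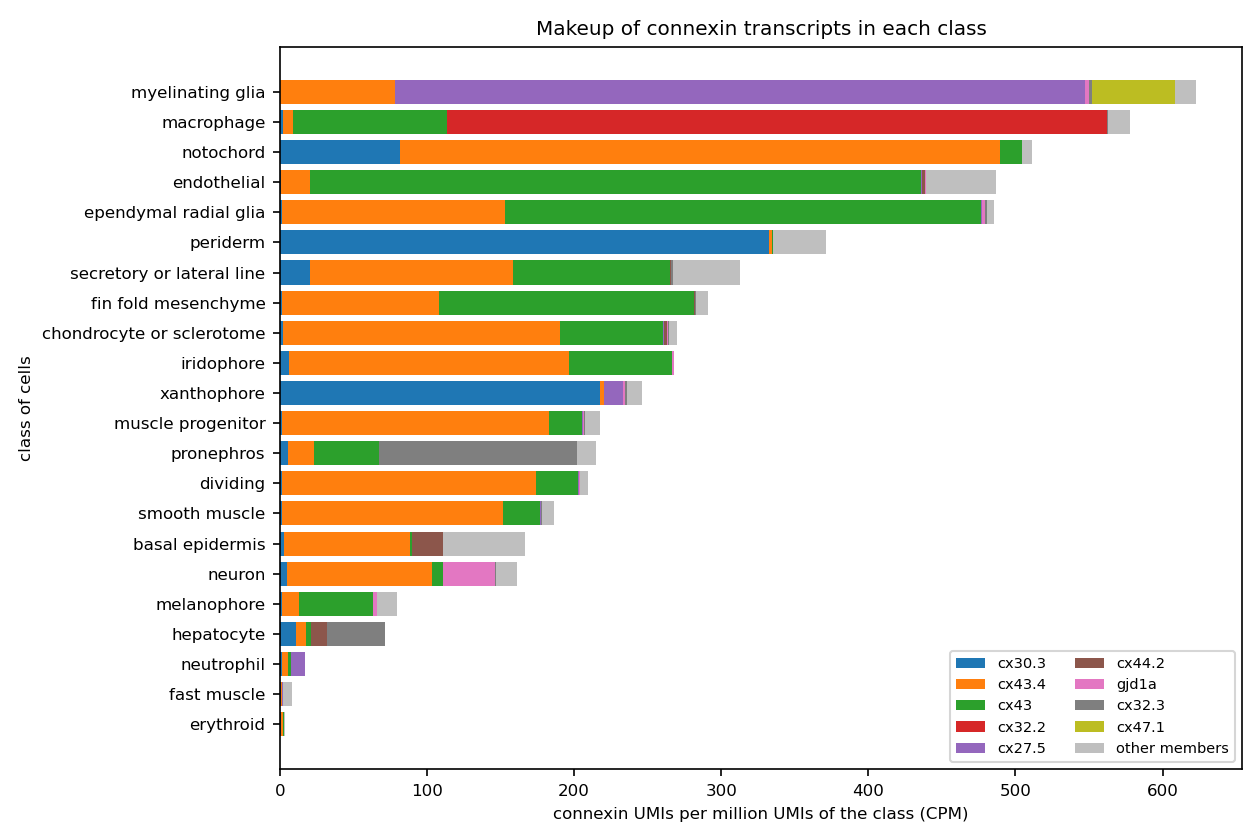
Summed CPM of all connexins in each class (bar length), coloured by member, over the 4 libraries. Myelinating glia-like (623 CPM), macrophage-like (578 CPM) and notochord-like cells (511 CPM) carry the most, each mainly of a single member, and erythroid-like cells the least (3.14 CPM).

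By class, the total pooled over the libraries ran from 3.14 CPM in erythroid-like cells to 623 CPM in myelinating glia-like cells. Macrophage-like (578 CPM), notochord-like (511 CPM), endothelial-like (487 CPM), radial glia-like (486 CPM) and periderm-like cells (371 CPM) came next. The leading member gave 75.4% of the connexin UMIs in myelinating glia (cx27.5), 77.7% in macrophages (cx32.2) and 79.8% in notochord (cx43.4). Neutrophil-like cells, at 17.3 CPM, stood far below macrophage-like cells.

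RefSeq lists 7 pairs of the members considered here with no protein-coding gene between them, which involve 13 members. In 3 of these pairs both genes had at least 20 UMIs, and in 1 of the 3 the leading class was shared (cx28.9 with cx32.3). That pair rests on 5 pronephros UMIs of cx28.9, whose libraries overlapped with the next class. In the others, cx27.5 with cx39.9 and cx43 with cx32.2, it differed.

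Some genes followed a connexin over the 22 class means, given as Pearson's r of log2(CPM + 1) among 15719 genes with at least 100 UMIs, as a description over classes that share libraries. cx32.2 was most like c1qb, a complement gene of macrophages, with r = 0.998. cx28.6 was most like nansb (0.998) and cldn23b (0.995). For the broad cx43.4 these were neo1b (0.91), nuak1b (0.90) and arl8 (0.89). cx30.3 was most like si:ch211-175m2.4 (0.81) and baiap2l1a (0.80), and cx43 like si:ch211-282j22.3 (0.83), si:dkey-119f1.1 and dpcd (0.82 each).

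In flt1 mutant trunks no connexin passed the threshold against WT. Over all retained cells 0 of 17 members tested were called at an adjusted p under 0.05 in edgeR, against 0.466% of all 18036 genes, and 0 of 17 had an unadjusted p under 0.05, against 15.7% of all genes. DESeq2 also called 0 members. The median log2 fold of flt1 mutant over WT was 0.0284 over the members and −0.0129 over all genes. In bulk sums, fewer cells of a type and less RNA per cell cannot be told apart.

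Within the 18 classes 0 of 37 pairs of a member and a class were called, against 1.3% of all gene and class pairs, and 7 of 37 (18.9%) had an unadjusted p under 0.05, against 12.8%. In the 4 smaller classes 0 of 4 pairs were called, against 0.181%. DESeq2 called 0 pairs as well. A permutation of 2 against 2 libraries cannot go below an exact p of 0.333, so it was not used. Under other settings 0 to 5 pairs were called, not all of them among the 37, and cx43.4 in basal epidermis was among them more than once. The share of all genes called under those settings was not counted.

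**Figure D5:**
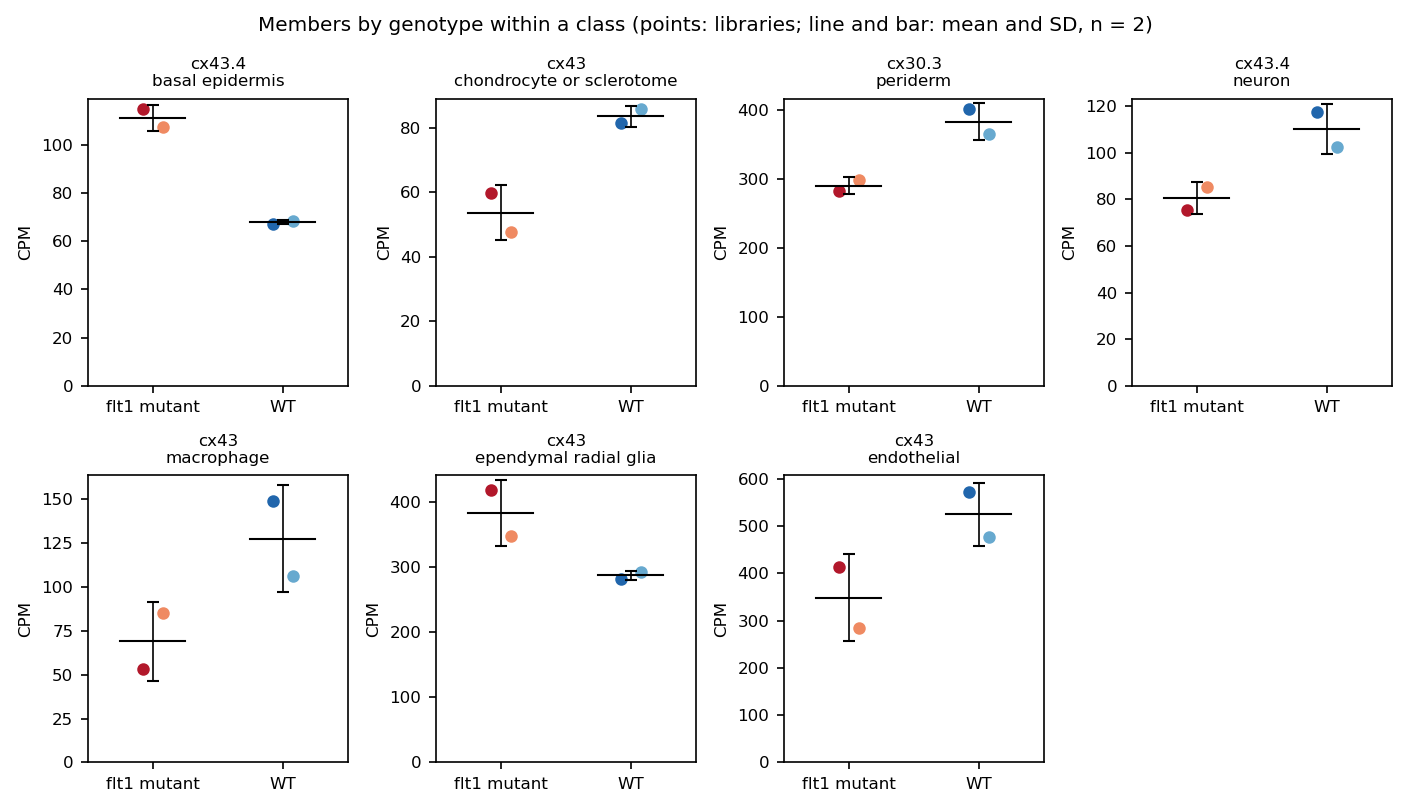
CPM of 7 pairs of a connexin and a class by genotype, flt1 mutant left of WT, 1 point per library: 5 pairs of unadjusted p under 0.05, and cx43 in radial glia-like and endothelial-like cells. None of the 7 pairs has an adjusted p under 0.05. The pairs were picked by unadjusted p or after their values were seen, so the gap between the genotypes in each comes with that choice.

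In the skin, flt1 mutant libraries lay above WT for cx43.4 in the basal layer and below WT for cx30.3 in the periderm. In basal epidermis-like cells cx43.4 was at 115 and 107.5 CPM in the flt1 mutant, against 67.2 and 68.4 CPM in the WT libraries (log2 fold 0.64, SE 0.137, adjusted p = 0.102). In periderm-like cells cx30.3 had a log2 fold of −0.29 (SE 0.0866, adjusted p = 0.115). cx44.2 in basal epidermis (−0.37, adjusted p = 0.598) and cx28.6 in periderm (−0.30, adjusted p = 0.399) had unadjusted p above 0.05. Over the alternatives, the adjusted p ran from 0.0347 to 0.601 for cx43.4 in basal epidermis and from 0.0369 to 0.411 for cx30.3 in periderm.

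For cx43, the flt1 mutant libraries lay below WT in chondrocyte or sclerotome-like cells, at 59.7 and 47.6 CPM against 81.3 and 85.9 CPM in WT (log2 fold −0.69, SE 0.180, adjusted p = 0.210). In macrophage-like cells they held 11 and 17 UMIs, against 48 and 32 UMIs in WT (log2 fold −0.85, SE 0.345, adjusted p = 0.514), while cx32.2 in the same cells had a log2 fold of 0.13. In endothelial-like cells, where flt1 acts, the log2 fold of cx43 was −0.59 (SE 0.285, adjusted p = 0.696), and no alternative called it, with adjusted p from 0.47 to 1.

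In radial glia-like cells cx43 had a log2 fold of 0.36 (SE 0.164, adjusted p = 0.502). The cluster poor in cx43 took a smaller percent of the class in flt1 mutant libraries. At a resolution of 0.6, where the first cluster alone is the radial glia-like class, the log2 fold was −0.04. The part of that cluster in the genotype difference was not tested. In neuron-like cells cx43.4 had a log2 fold of −0.49 (SE 0.167, adjusted p = 0.366). Photoreceptor-like cells, with cx43.4 at 148 CPM, and retinal bipolar-like cells came mainly from WT and formed classes of their own. The cluster poor in cx43 within the radial glia-like class was also led by pde6gb and vsx1, which are among the markers of those classes. Whether retinal neurons remained among the neuron-like cells was not tested.

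Whether the genotype difference varied between classes was tested in a single fit over the 18 classes. No member of 13 tested was called at an adjusted p under 0.05, against 0.886% of all genes, and 1 of 13 had an unadjusted p under 0.05, against 8.27%. That member was cx43.4 (adjusted p = 0.393). cx43 had an adjusted p of 0.769.

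A list of 20 genes that bind connexins, act on them or form related channels was set beside the members: the pannexins, the tight junction scaffolds of the tjp family, consortins, neurobeachins, dbn1, caveolins, calmodulins, src and prkcda. Over all cells 0 of 19 tested were called by genotype, and 3 (panx1a, cnstb and nbeaa) had an unadjusted p under 0.05 (15.8%, against 15.7% of all genes). Within the 18 classes 5 of 123 pairs (4.07%) were called, all lower in flt1 mutant, against 1.3% of all gene and class pairs in either direction. The calls lay in erythroid-like, periderm-like, fast muscle-like and smooth muscle-like cells, where 5.39%, 6.13%, 1.59% and 0.897% of all genes were called. How many of all called genes were lower was not counted. Higher in a class were 34 of 324 pairs (10.5%), near the 11.8% over all genes. cav1, the caveolin of smooth muscle and endothelium, was at 373 and 265 CPM in smooth muscle-like cells of the flt1 mutant libraries, against 707 and 585 CPM in those of the WT libraries (log2 fold −1.09, SE 0.158, adjusted p = 0.0328), and was also called in erythroid-like cells at a level of at most 3.91 CPM. Its log2 fold was also negative in muscle progenitor (−1.83), fin fold (−1.81), notochord (−1.47) and sclerotome or chondrocyte cells (−1.46). The same held in dividing (−1.23), endothelial (−0.80), basal epidermis (−0.70), periderm (−0.50) and secretory cells (−0.19). None of these was called (edgeR, adjusted p from 0.0658 to 0.983), and radial glia-like cells had a log2 fold of 0.12. The direction was thus not particular to smooth muscle. The pannexin panx1a had 0 and 1 UMI in fast muscle-like cells of the flt1 mutant, against 12 and 25 UMIs in WT (adjusted p = 0.0488). Over the whole trunk panx1a had 24 and 25 UMIs in the flt1 mutant libraries and 117 and 121 UMIs in the WT libraries (log2 fold −2.09, SE 0.276, adjusted p = 0.0622). The remaining calls were cnstb in erythroid-like cells (log2 fold −2.22, adjusted p = 0.00331) and prkcda in periderm-like cells (log2 fold −2.49, adjusted p = 0.0311), each at under 10 CPM.

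Among the scaffolds and channels, several were called in the classes of particular connexins. tjp3 had a log2 fold of 4.95 in periderm, and tjp2a of 3.21 in basal epidermis and 1.96 in periderm. tjp2b was called in myelinating glia-like cells (2.94), periderm (2.11) and basal epidermis (1.91), and tjp1a was called in several classes, at log2 folds of 2.01 in notochord and 2.18 in endothelial-like cells among others. Neurons had nbeaa at 4.70 and panx1b at 4.11. cav3 led in fast muscle at 6.48, and panx3 in chondrocyte or sclerotome-like cells at 5.79.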

How the data were processed

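Transcripts of single trunk cells were counted at their 3′ ends on a droplet platform in 2 flt1 mutant and 2 WT libraries. The deposited counts are UMIs per gene and barcode, made by the authors with Cell Ranger 6.1.1 per the file headers and mapped to GRCz11, without normalization. Columns of the authors' own comparisons are not part of the files.

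Cells with over 200 and under 4000 genes and under 5% mitochondrial UMIs (13 genes) were kept. Genes with UMIs in at least 5 cells entered Seurat 5.3.0 (R 4.3.3): log-normalisation, 2000 variable genes without the 5 connexins among them, integration by reciprocal principal component analysis (30 dimensions), 50 components and a resolution of 0.3. SCTransform, which the study's methods name, was not used here. Classes were named from marker lists and are written as "-like". Doublets were kept: Scrublet in scanpy 1.11.5 called 0 to 3 cells per library and so had not worked, and an alternative left out the 5.4% to 6.32% of cells with the highest scores.

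UMI sums per library and class were tested with edgeR 4.0.16 (TMM, filterByExpr, two-sided quasi-likelihood F test, Benjamini-Hochberg over all genes), with library as a block for a class against the other named cells. A count test on 4 libraries sees a change only where it exceeds the spread between them. DESeq2 1.42.0, library totals, no count filter, over 500 genes per cell, a resolution of 0.6, a library block left out, and each library left out were alternatives. For the genotype tests, library totals moved the median of all genes by −0.449 to 0.0959. Members and lists were chosen with earlier results of these data known. Named by genotype were members called, then those of unadjusted p under 0.05, up to 10 pairs; by class, up to 3 called members per class by CPM; cx43 in radial glia-like and endothelial-like cells, cav1 and the related genes given with values were chosen after their values were seen. Test scripts were tested on simulated data. No sequences or coordinates are given, because the annotation at hand is of another assembly (GRCz12tu). The results of 1 member, which is in the counts over members, are not reported here.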

Additional observations from a re-analysis of the deposited data

Results flagged for a closer look

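For 2 connexins the pairs named by genotype included classes with opposite directions, each with the flt1 mutant libraries clear of WT. These pairs were picked by unadjusted p or after their values were seen. How many other genes do the same was not counted. The difference between the classes was not tested pair by pair, and in the fit over 18 classes neither passed the threshold (edgeR, adjusted p = 0.393 for cx43.4 and 0.769 for cx43). The differences are in log2 of flt1 mutant over WT.

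cx43.4 was higher in basal epidermis-like cells of flt1 mutant (0.64) and lower in neuron-like cells (−0.49), a difference of 1.13. cx43 was higher in radial glia-like cells of flt1 mutant (0.36) and lower in chondrocyte or sclerotome-like (−0.69), macrophage-like (−0.85) and endothelial-like cells (−0.59), and these differences were 1.05, 1.2 and 0.947. The radial glia side of the cx43 differences turns to −0.04 at a resolution of 0.6.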

How the results depend on the processing

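The number of connexin and class pairs called by genotype, 0 in edgeR, became 1 with library totals in place of TMM (cx30.3 in periderm). It was 5 with no count filter, cx43.4 in basal epidermis and cx43 in chondrocyte or sclerotome-like and melanophore-like cells among them. With a replicate block it was 2 (cx43.4 in basal epidermis, adjusted p = 0.0421, among them). With the filter 0 members were tested in melanophore-like cells, so these pairs are not all among the 37 of the main fits. The share of all genes called under each setting was not counted, so these numbers say nothing particular about connexins. On leaving out a library it was 0 to 3: 3 without WT replicate 1 (cx43 in melanophore-like and smooth muscle-like cells among them) and 3 without WT replicate 2 (cx43.4 in basal epidermis and cx43 in smooth muscle-like cells among them). The interaction called 1 member with no count filter (cx43), and the share of all genes under that setting was not counted either. The causes were not tested. No setting called a member in the whole trunk. Same-numbered libraries did not deviate together, so the block rests on a number alone. Over genes, the difference of replicate 1 from 2 in WT had a correlation of −0.179 with that in flt1 mutant. The crossed pairing, added after the data were seen, called 0 members in the whole trunk and 0 pairs.

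Pairs higher in a class numbered 22 to 32 over the alternatives (23 to 25 on leaving out a library), and 22 to 25 of the 25 called pairs remained. With over 500 genes per cell, macrophage-like and hepatocyte-like cells fell below 20 cells in a library and were not tested. Of the values of named pairs higher in a class, 351 kept direction and call, 14 lost the call and 2 reversed: gja5a in muscle progenitors with connexin genes allowed among the variable genes (−1.18) and cx27.5 in neutrophils without flt1 mutant replicate 1 (−7.94 to 2.62 on leaving out a library). By genotype 104 kept both, 10 gained a call and 1 reversed, cx43 in radial glia at a resolution of 0.6 (−0.0366). For a member with under 20 UMIs the leading class rests on 14 UMIs or fewer. The alternatives were run for the connexins and not for the related genes.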
